A study of Mus musculus with 11 samples.

Results

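The interferon-stimulated genes (ISGs) are 44 genes that are known to be switched on by interferon, taken by gene name from the 54532 genes of the counts table. All 44 were in the table, each on 1 identifier, and 43 of them had enough counts to be among the 13129 genes tested. The remaining member, Ifitm1, was under the filter on low counts. The cells were CD8+ Tregs, sorted from spleen as CD8+CD44+Ly49+CD122+ T cells, from wild-type mice with no transgene or treatment named in the labels. The older group carries the label old and is called middle-aged here. Young mice were 2 to 3 months old (3 males and 3 females) and middle-aged mice 10 to 12 months old (2 males and 3 females). Each of the 11 libraries is an independent replicate, numbered 1 to 3 within its age and sex.

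Type I interferons (the interferon alphas and beta) signal through the receptor chains Ifnar1 and Ifnar2 and the kinases Jak1 and Tyk2, which lead to a complex called ISGF3 that holds Stat2 and Irf9. ISGF3 binds the interferon-stimulated response element (ISRE) in promoters, while interferon gamma acts through gamma-activated sites (GAS). The genes switched on include sensors and inhibitors of virus growth, the transcription factors of the pathway itself, and brakes such as Usp18 and Socs1. In memory-like CD8+ T cells interferons are known to act on survival and activation.

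The elements that give these genes their name were looked for in RefSeq promoters of the build GRCm38.p6, from 250 bases before to 50 bases after each transcript's start. Of the 44 members, 32 matched a RefSeq entry by symbol, with 40 promoters. The ISRE core searched was GAAANNGAAA on both strands, so that its other strand reads TTTCNNTTTC, and the GAS core was TTCNNNGAA, which reads the same on both strands. Matches of both kinds may share bases. The ISRE core was in 20 of the 40 member promoters, against 3.44% of 32851 promoters in all, and the GAS core in 11 (27.5%), against 8.30%. By gene, 19 members had an ISRE core in at least 1 promoter, 6 had both cores and 8 had neither. The members were chosen as ISGs, so these shares describe the choice. The 150 bases before the start are printed for 5 members on which the results below turn or which show each arrangement. Isg15 has 3 overlapping ISRE cores, Oas1a has 2 that overlap, Ifit1 has 2 apart and Gbp2 has 1. Oas1a also has 1 GAS core. Irf1 has a GAS core and no ISRE core in the promoter printed, and neither core in the other of its 2 promoters. Capitals mark the ISRE core, or in Irf1 the GAS core. The GAS core of Oas1a is in lower case.
Isg15 (chr4:156200819-156200968, minus strand): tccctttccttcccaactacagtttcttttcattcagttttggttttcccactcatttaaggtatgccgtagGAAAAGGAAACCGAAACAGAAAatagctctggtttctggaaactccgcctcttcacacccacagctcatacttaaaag
Ifit1 (chr19:34640739-34640888, plus strand): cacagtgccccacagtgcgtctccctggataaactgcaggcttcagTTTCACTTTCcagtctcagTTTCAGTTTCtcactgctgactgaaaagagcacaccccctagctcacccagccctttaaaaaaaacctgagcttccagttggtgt
Oas1a (chr5:120907526-120907675, minus strand): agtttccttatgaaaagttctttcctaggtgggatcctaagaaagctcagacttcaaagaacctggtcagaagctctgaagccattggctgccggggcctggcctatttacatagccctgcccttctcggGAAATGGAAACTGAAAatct
Gbp2 (chr3:142620513-142620662, plus strand): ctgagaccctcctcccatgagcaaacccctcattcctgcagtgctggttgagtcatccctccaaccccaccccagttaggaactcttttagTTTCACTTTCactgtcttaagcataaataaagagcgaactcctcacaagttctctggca
Irf1 (chr11:53769864-53770013, plus strand): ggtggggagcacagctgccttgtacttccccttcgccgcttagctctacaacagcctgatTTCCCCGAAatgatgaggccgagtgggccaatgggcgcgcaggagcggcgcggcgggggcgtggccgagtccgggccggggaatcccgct
In these promoters the core nearest the start begins 66 bases before it in Isg15, 85 in Ifit1, 14 in Oas1a, 59 in Gbp2 and 90 in Irf1. A match is a run of letters and was not shown to be bound in these cells.

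Libraries are given in CPM, counts scaled to library size by edgeR's TMM factors, and the total count per library ranged from 6135736 to 24394532. The limit that 3 counts allow is 0.119 to 0.543 CPM. The sorted cells' own markers (Cd3e, Cd8a, Cd8b1, Cd44, Il2rb, Klra6, Klra7 and Ikzf2) summed to 5093 to 7401 CPM over the 11 libraries, and none was at 0 in every library. Single markers were less even. Il2rb (CD122) was at 552 CPM in young male 1 and 1293 CPM in young female 1, against 1956 to 2625 CPM in the others. Cd44 was at 42.3 CPM in young male 1 and 98.4 to 166 CPM in the others. Klra6 was highest in young male 1, at 417 CPM, and Ikzf2 in young female 1, at 69.2 CPM. Libraries that stood apart bear on the members. The young libraries numbered 1 were the shallowest, with 6135736 counts in the male and 8421396 in the female. Middle-aged female 2 had 2756 CPM summed over 10 myeloid markers, against 51.3 to 229 CPM in young and 159.7 to 340 CPM in the other middle-aged libraries. Of the 10 markers 7 were highest there, among them S100a9 at 766 CPM, and none of the 10 was at 0 in every library. In bulk samples, a smaller share of cells of a type and less RNA per cell cannot be told apart.

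To compare members with each other, levels were set per length as TPM, the usual length-scaled unit, from the counts and the table's gene lengths. The mean over 11 libraries was 100 TPM or more for 6 members, from 10 to under 100 for 26, from 1 to under 10 for 10, and under 1 for 2. Ifi27l2a, which codes for a small mitochondrial and nuclear envelope protein, had the highest mean level, 632 TPM with an SD of 493.4 and a range of 129 to 1613. It was followed by Sp100, a nuclear body protein (304 ± 74.9 TPM, SD, n = 11), and Bst2, or tetherin, which holds budding viruses at the cell surface (303 ± 71.5 TPM, SD, n = 11). Next came Ifi35 (200 ± 75.2 TPM), Irf1 (191 ± 76.7 TPM) and the immunity-related GTPase Igtp (163 ± 48.6 TPM). Each neighbouring pair in this order overlapped in its range over the libraries. Isg15, a ubiquitin-like protein, followed at 99.957 TPM (SD 78.8). At the low end were Oas2 (0.584 TPM) and Ifi44 (0.638 TPM). Between 36 and 44 members had at least 1 TPM in a library, the fewest in young male 1 and the most in middle-aged female 2.

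**Figure D1:**
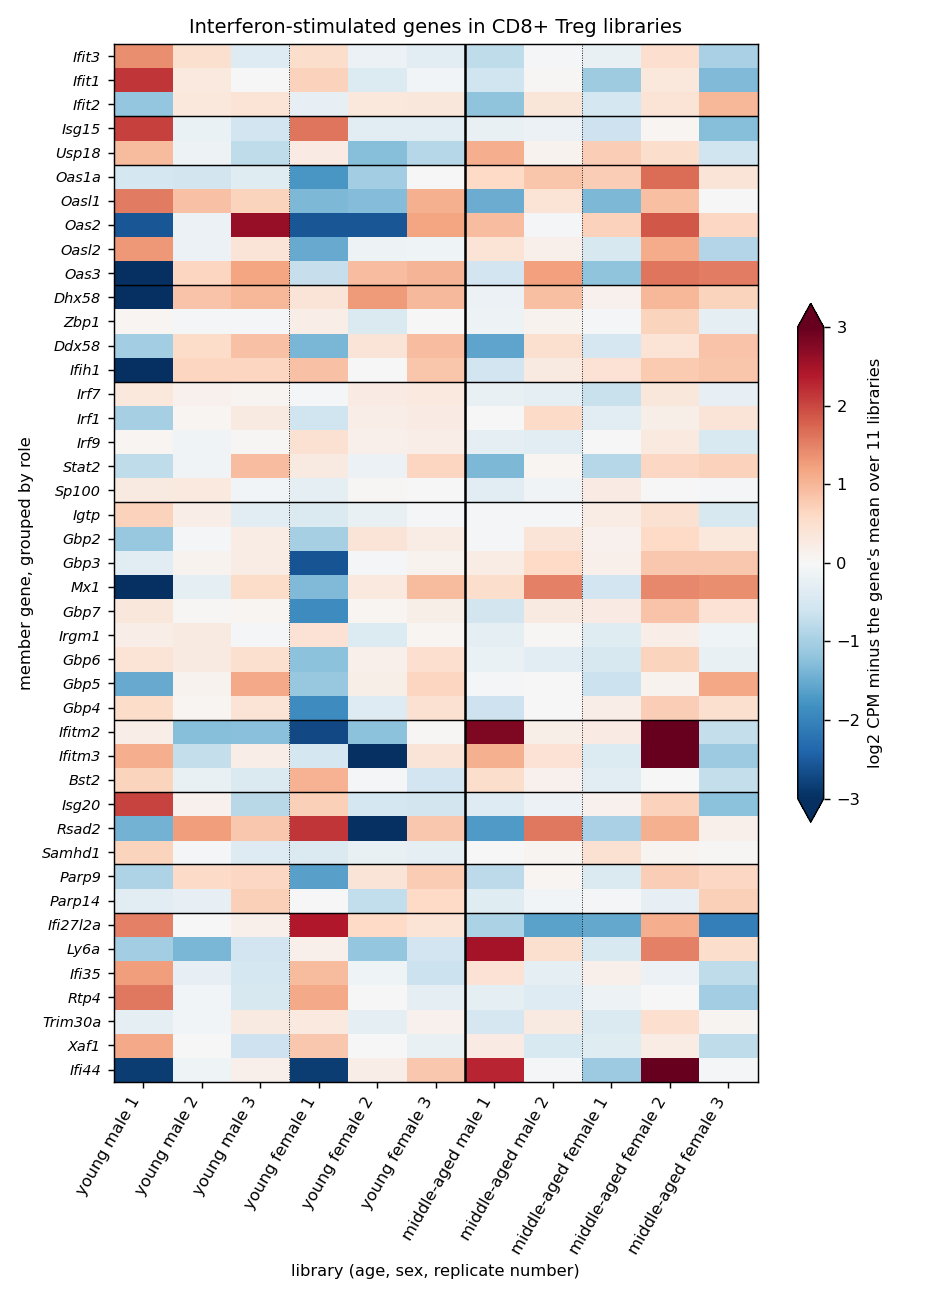
Log2 CPM of the 43 tested members minus each gene's mean over the 11 libraries, as colour from -3 (blue) to 3 (red), with values beyond these limits in the end colours. Rows are genes in blocks of shared role and columns are libraries, young left of the thick line. Young male 1 holds the lowest values of Oas3, Dhx58 and Ifih1 and the highest of Ifit1 and Isg15, and middle-aged female 2 the highest of Ifitm2 and Ifitm3.

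The main question was whether ISG expression differs between young and middle-aged CD8+ Tregs. No member passed an adjusted p under 0.05 in the quasi-likelihood test of edgeR after Benjamini-Hochberg adjustment (0 of 43, beside 3 of 13129 genes in all, or 0.0229%), the smallest being 0.344. DESeq2's Wald test called 2 of the 42 members to which it gave an adjusted p, Oas1a and Ly6a (4.76%, beside 0.860% of all genes), and limma voom with sample quality weights called 1, Oas1a (2.33%, beside 1.05% of all genes). At an unadjusted p under 0.05, 3 members (6.98%) were higher in middle-aged cells, beside 2.00% of all genes, and 1 member (2.33%) was lower, beside 0.990% of all genes. The log2 fold change (middle-aged over young) was above 0 for 20 members and below 0 for 23, with a median of -0.041, against 0.0028 over all tested genes. The lower and upper quartiles were -0.33 and 0.37 for the members and -0.20 and 0.22 for all genes. With only the 7 libraries numbered 2 and 3, a choice made after seeing the data, 8 members were higher at an unadjusted p under 0.05 (2.71% of all genes) and 0 were lower (1.89% of all genes). Those 8 were Oas1a, Ly6a, Ifitm2, Gbp3, Gbp7, Oas3, Usp18 and Mx1.

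**Figure D2:**
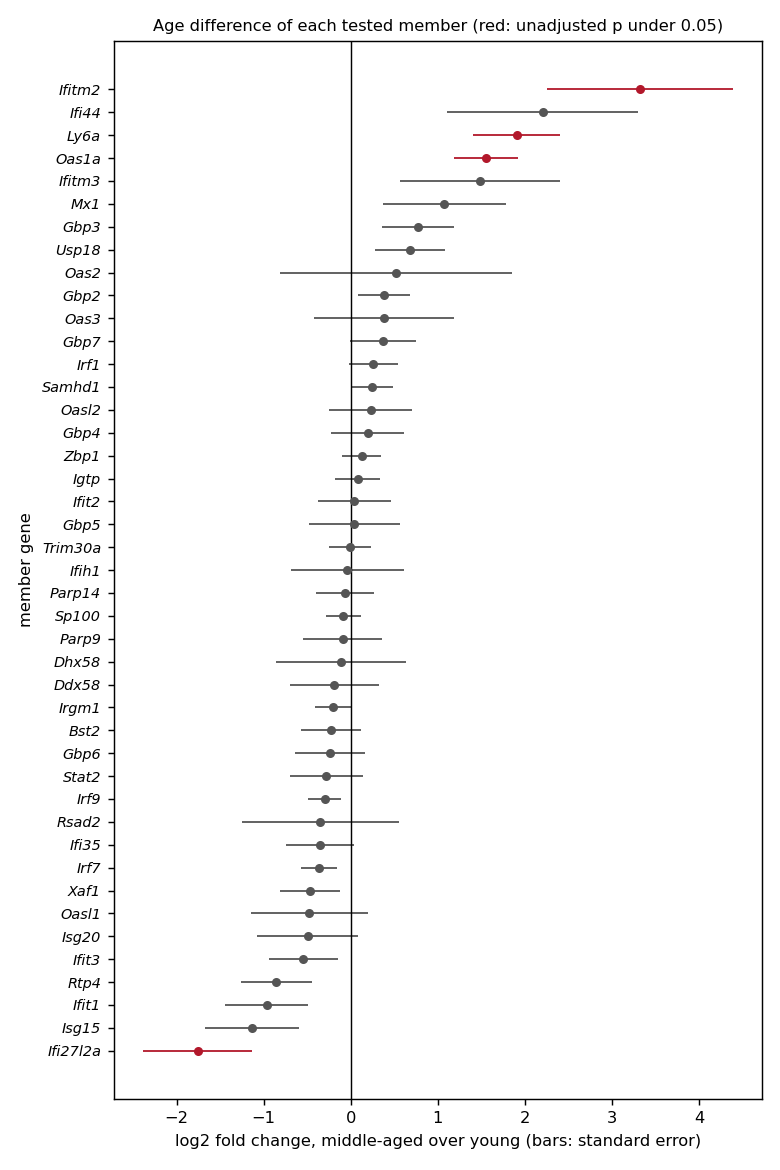
Log2 fold change of middle-aged over young for the 43 tested members, with bars of 1 standard error; red marks an unadjusted p under 0.05. Ifitm2, Ly6a and Oas1a lie on the right at 3.32, 1.91 and 1.55 and Ifi27l2a on the left at -1.76.

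The oligoadenylate synthetases make the messenger that activates RNase L, and Oas1a (chromosome 5, 120896256 to 120907521, minus strand) had the smallest p among the members. Oas1a was at 12.5, 12.3 and 14.0 CPM in young males 1 to 3 and at 5.28, 8.71 and 17.9 CPM in young females 1 to 3. It was at 27.6 and 32.3 CPM in middle-aged males 1 and 2 and at 30.4, 58.2 and 23.7 CPM in middle-aged females 1 to 3. Every middle-aged library was above every young one. Oas1a was the only one of the 43 members (2.33%) for which this held, beside 1.01% of all genes, and no member had every middle-aged library below every young one (0.297% of all genes). The log2 fold change of Oas1a was 1.55 (SE 0.37, edgeR adjusted p = 0.344; exact permutation p = 0.00216, the smallest that 6 libraries against 5 allow). Oas1a was highest in middle-aged female 2, the library with the most myeloid marker RNA. Without that library its log2 fold change was 1.28 (edgeR adjusted p = 0.702). Within replicate numbers 1, 2 and 3 the difference in log2 CPM of Oas1a was 1.82, 2.05 and 0.58. The adjusted p of Oas1a was 0.00731 in DESeq2 and 0.0338 in limma voom.

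None of the other 4 members of the family passed an unadjusted p under 0.05. Oas3, the longest of them at 7069 bp, was at 0.362, 37.2 and 54.3 CPM in young males, 14.7, 45.2 and 48.2 CPM in young females, 16.1 and 56.2 CPM in middle-aged males and 10.3, 72.8 and 69.9 CPM in middle-aged females. The 4 libraries numbered 1 were the 4 lowest, in both ages. The log2 fold change by age was 0.38 for Oas3 (SE 0.80), 0.23 for Oasl2, 0.52 for Oas2 and -0.48 for Oasl1. Oasl1 and Oasl2 code for OAS-like proteins. Oas2 reached at most 3.87 CPM and had no counts in both young libraries numbered 1 and in young female 2.

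Ly6a, or Sca-1, is a surface protein of stem cells and activated lymphocytes that interferon raises in T cells (chromosome 15, 74994877 to 74998031, minus strand). Its level was 16.5, 12.9 and 22.7 CPM in young males and 37.8, 14.999 and 22.6 CPM in young females, against 191 and 46.9 CPM in middle-aged males and 24.7, 96.1 and 48.9 CPM in middle-aged females. Middle-aged female 1 lay below young female 1 and above the other 5 young libraries, so the ages overlapped by 1 library on either side. Ly6a had a log2 fold change of 1.91 (SE 0.50, edgeR adjusted p = 0.457; exact permutation p = 0.0108), and 1.26 without middle-aged male 1. Within numbers 1, 2 and 3 it was 1.46, 2.26 and 1.11 in log2 CPM. In DESeq2 the adjusted p of Ly6a was 0.0270.

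**Figure D3:**
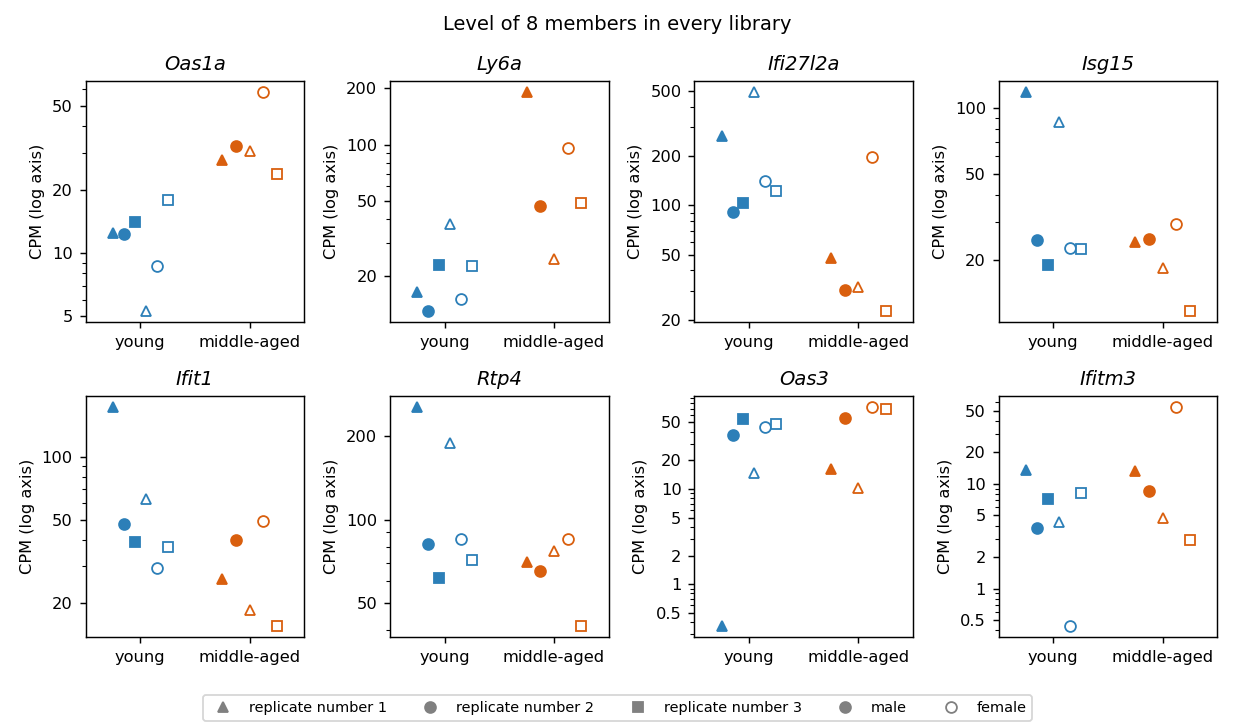
CPM on a log axis of 8 members in every library, young in blue and middle-aged in orange, filled for males and open for females, with triangles, circles and squares for replicate numbers 1, 2 and 3. Oas1a does not overlap between ages, Isg15 and Rtp4 are high in both young triangles, and Ifitm3 is highest in middle-aged female 2 at 54.4 CPM.

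The Ifitm genes code for membrane proteins that block the entry of viruses. Ifitm2 was at 0.723, 0.188 and 0.191 CPM in young males and 0, 0.199 and 0.634 CPM in young females. Among middle-aged libraries Ifitm2 was at 9.32 CPM in female 2 and 4.90 CPM in male 1, and at 0.332 to 0.742 CPM in the other 3. So 2 libraries stood above all the rest. Ifitm2 had a log2 fold change of 3.32 (SE 1.06, edgeR adjusted p = 0.821; exact permutation p = 0.0238) and 2.01 without middle-aged female 2, where its unadjusted p was no longer under 0.05. Ifitm3 was at 54.4 CPM in middle-aged female 2 and at 0.438 to 13.6 CPM elsewhere, and its log2 fold change was 1.48 (SE 0.92). Ifitm1 had 246 counts (10.3 CPM) in middle-aged female 2 and 5 counts or fewer in each other library. All 3 were highest in the library with the most myeloid marker RNA, and the part of that RNA in these values was not tested. In middle-aged male 1, the second highest for Ifitm2, the myeloid sum was 340 CPM, of which Lyz2 alone made 285 CPM. Young male 3 had a myeloid sum of 229 CPM, with Ifitm2 at 0.191 CPM. The 3 genes are close in sequence, and how shared reads were divided is not given in the sources used here. Bst2 was at 192, 103 and 88.6 CPM in young males, 249, 115 and 80.9 CPM in young females, 173 and 131 CPM in middle-aged males and 94.4, 120.2 and 73.6 CPM in middle-aged females. The ages overlapped for Bst2, with a log2 fold change of -0.23 (SE 0.34).

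Ifi27l2a (chromosome 12, 103442167 to 103443680, minus strand), the member with the highest level per length, was the only 1 lower in middle-aged cells at an unadjusted p under 0.05. It was at 267, 91.7 and 103 CPM in young males and 494, 140 and 123 CPM in young females. It was at 47.8 and 30.2 CPM in middle-aged males and at 31.8, 198 and 22.5 CPM in middle-aged females. Middle-aged female 2 lay among the young libraries and the other 4 middle-aged libraries lay below all 6 young ones. The log2 fold change of Ifi27l2a was -1.76 (SE 0.62, edgeR adjusted p = 1.00; exact permutation p = 0.026). It was -2.57 without middle-aged female 2 (adjusted p = 0.249) and -0.80 in the libraries numbered 2 and 3 alone. Within numbers 1, 2 and 3 the difference in log2 CPM was -3.22, -0.55 and -2.32. DESeq2 gave Ifi27l2a no p value (log2 fold change -1.78).

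Isg15 is joined to other proteins and Usp18 removes it and also holds back the type I receptor. Isg15 (chromosome 4, 156199424 to 156200818) was at 118, 24.7 and 19.0 CPM in young males and at 86.2, 22.8 and 22.6 CPM in young females. It was at 24.2 and 24.97 CPM in middle-aged males and at 18.4, 29.5 and 11.7 CPM in middle-aged females. Both young libraries numbered 1 stood above all others, and the remaining 4 young libraries lay within the middle-aged range. For Isg15 the log2 fold change was -1.14 (SE 0.54, edgeR adjusted p = 1.00; exact permutation p = 0.234) over all libraries and -0.013 in the libraries numbered 2 and 3. Usp18 was at 161, 74.6 and 49.6 CPM in young males, 98.3, 34.2 and 46.0 CPM in young females, 178 and 90.0 CPM in middle-aged males and 139, 121 and 55.0 CPM in middle-aged females. The library numbered 1 was the highest of each age and sex, and the log2 fold change was 0.68 (SE 0.40, adjusted p = 1.00) over all libraries and 0.90 in those numbered 2 and 3.

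The IFIT proteins bind foreign RNA and hold back its translation. Ifit1 (chromosome 19, 34640871 to 34650009) was at 173, 47.7 and 39.1 CPM in young males, 63.0, 29.5 and 37.0 CPM in young females, 26.0 and 40.1 CPM in middle-aged males, and 18.6, 49.1 and 15.5 CPM in middle-aged females. Young male 1 was far above the rest, and the ages overlapped. The log2 fold change of Ifit1 was -0.96 (SE 0.48, edgeR adjusted p = 1.00) over all libraries and -0.078 in the libraries numbered 2 and 3. It was -0.54 for Ifit3 and 0.04 for Ifit2. Rtp4, a receptor transport protein, was at 255, 81.5 and 61.8 CPM in young males and 189, 85.3 and 71.5 CPM in young females, against 41.3 to 85.2 CPM in middle-aged libraries. Its log2 fold change was -0.86 (SE 0.41, edgeR adjusted p = 1.00), and -0.24 in the libraries numbered 2 and 3. Reads of Ifit3 may be shared with its near copy Ifit3b, and Rtp4 lies over the opposite-strand gene Masp1.

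None of the 5 transcription factors passed an unadjusted p under 0.05. Irf7, which drives interferon alpha genes, was at 154, 136 and 130.1 CPM in young males, 121, 147 and 153 CPM in young females, 106 and 101 CPM in middle-aged males and 78.4, 157 and 105 CPM in middle-aged females. Its log2 fold change was -0.37 (SE 0.21, edgeR adjusted p = 1.00; exact permutation p = 0.0411). The 4 middle-aged libraries other than female 2 lay below all 6 young ones. Irf9, the DNA-binding part of ISGF3, was at 131, 118 and 130.4 CPM in young males, 174, 141 and 145 CPM in young females, 104 and 101 CPM in middle-aged males and 128, 154 and 92.1 CPM in middle-aged females. The ages overlapped for Irf9 (log2 fold change -0.30, SE 0.19, edgeR adjusted p = 1.00). Irf1, which interferon gamma induces, was at 158, 325 and 378 CPM in young males, 206, 357 and 369.6 CPM in young females, 315 and 465 CPM in middle-aged males and 246, 353 and 407 CPM in middle-aged females. It was lowest in both young libraries numbered 1 (log2 fold change 0.26, SE 0.28). Sp100 was at 1216, 1223 and 944 CPM in young males, 826, 1021 and 1005 CPM in young females, 801 and 924 CPM in middle-aged males and 1188, 1011 and 957 CPM in middle-aged females (log2 fold change -0.09, SE 0.20). Stat2 was at 20.1 to 64.9 CPM in young and 13.3 to 55.2 CPM in middle-aged libraries. Both ages spanned much the same range for Sp100 and Stat2. Irf7 lies over Phrf1 on the opposite strand and Irf9 over Rnf31 on the same strand, so reads of these genes may be shared.

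The guanylate-binding proteins and immunity-related GTPases attack the membranes around microbes. They were grouped with Mx1, a dynamin-like GTPase, and 7 of these 9 members had a log2 fold change above 0, beside 50.4% of all genes. The number above 0 was 3 of 9 in males alone, 8 of 9 in females alone, 5 of 9 with limma voom and 4 of 9 without young female 1. Gbp3 had 0.77 (SE 0.41, edgeR adjusted p = 1.00; exact permutation p = 0.026). It was at 21.5, 29.4 and 31.8 CPM in young males, 4.45, 26.4 and 29.5 CPM in young females, 31.8 and 41.6 CPM in middle-aged males and 30.2, 47.8 and 48.1 CPM in middle-aged females. The difference in log2 CPM within numbers 1, 2 and 3 was 1.65, 0.67 and 0.65. Mx1 had a log2 fold change of 1.08 (SE 0.71), with 0.181 to 12.6 CPM in young and 4.29 to 18.6 CPM in middle-aged libraries. Gbp4 was at 179, 127 and 160.0 CPM in young males, 32.9, 92.5 and 166 CPM in young females, 79.3 and 121 CPM in middle-aged males and 139, 203 and 168 CPM in middle-aged females, and Gbp7 was at 139.6, 113 and 116 CPM in young males, 29.8, 116 and 125 CPM in young females, 75.2 and 133 CPM in middle-aged males and 132, 199.8 and 151 CPM in middle-aged females. Young female 1 was the lowest library for Gbp3, Gbp4 and Gbp7. The log2 fold changes of Gbp2, Gbp7, Gbp4, Igtp and Gbp5 were 0.38, 0.37, 0.19, 0.08 and 0.04, and those of Irgm1 and Gbp6 were -0.20 and -0.24. Gbp genes are near copies of each other and lie in clusters on chromosomes 3 and 5, so their single values are less certain.

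The RNA and DNA sensors find viral nucleic acid and start the response. Ddx58 (RIG-I) was at 36.9, 111 and 141 CPM in young males, 29.6, 100.1 and 145 CPM in young females, 25.3 and 107 CPM in middle-aged males, and 53.7, 102 and 137 CPM in middle-aged females. As with Oas3, the 4 libraries numbered 1 were the 4 lowest. Dhx58 (LGP2) had 0 counts in young male 1, which allows up to 0.543 CPM, and 12.6 to 34.5 CPM in the other libraries. Ifih1 (MDA5) had 1 count there and 5.18 to 14.5 CPM in the others. The log2 fold changes by age were -0.19 (SE 0.51) for Ddx58, -0.11 (SE 0.74) for Dhx58, -0.04 (SE 0.65) for Ifih1 and 0.13 (SE 0.22) for Zbp1. Ifi44, a cytoplasmic protein of less clear role, was at 0, 0.610 and 0.764 CPM in young males, 0, 0.796 and 1.27 CPM in young females, 3.76 and 0.649 CPM in middle-aged males and 0.265, 9.32 and 0.664 CPM in middle-aged females. Middle-aged female 2 and male 1 were the highest (log2 fold change 2.20, SE 1.10, edgeR adjusted p = 1.00; 0.91 without middle-aged female 2).

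Among the remaining members, Samhd1, which degrades nucleotides, was at 213 to 459 CPM in young and 286 to 396 CPM in middle-aged libraries (log2 fold change 0.24, SE 0.24). Isg20, an RNA exonuclease, was highest in young male 1 at 75.2 CPM, with 7.73 to 30.3 CPM in the others. Rsad2 (viperin) was at 0.239 to 20.3 CPM with no order by age. Parp9 and Parp14, ADP-ribosyltransferases, had log2 fold changes of -0.10 and -0.07, Trim30a -0.01 and Xaf1 -0.47. Ifi35 was at 354, 125 and 103 CPM in young males, 285, 136 and 95.7 CPM in young females, 199 and 123 CPM in middle-aged males and 166, 131 and 87.9 CPM in middle-aged females, high in both young libraries numbered 1 (log2 fold change -0.35, SE 0.39). None of these 8 passed an unadjusted p under 0.05.

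Averaged over the 43 members, the log2 CPM per library was 4.99 ± 0.28 (SD, n = 6) in young and 5.22 ± 0.41 (SD, n = 5) in the middle-aged group. The difference of 0.23 is smaller than either SD, and the mean over all 13129 tested genes differed by 0.20 in the same direction. The highest score was 5.91 in middle-aged female 2, and the lowest were 4.72 in young male 1, 4.75 in young female 2 and 4.76 in young female 1. Without middle-aged female 2 the difference was 0.054. Within replicate numbers 1, 2 and 3 the score differed by 0.20, 0.64 and -0.24, and the mean over all genes by 0.56, 0.11 and -0.012. It differed by 0.11 in males and 0.32 in females, against 0.18 and 0.22 over all genes. The median over members differed by 0.045.

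**Figure D4:**
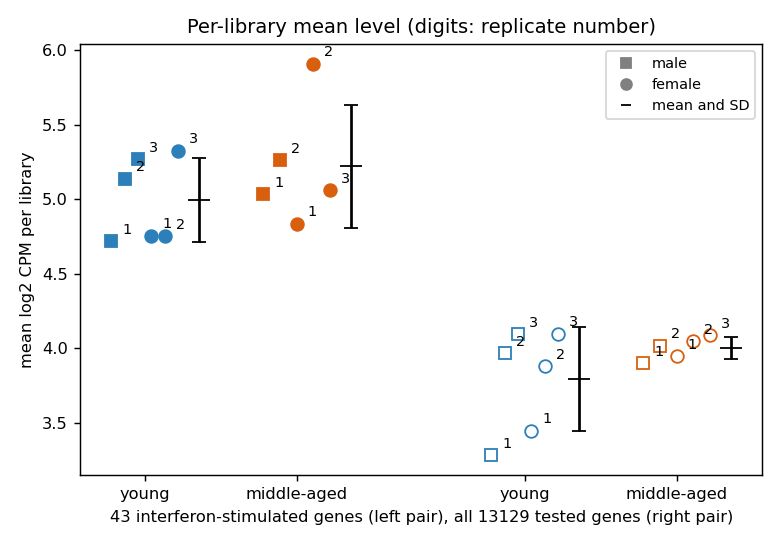
Mean log2 CPM per library over the 43 tested members (left pair, filled) and over all 13129 tested genes (right pair, open), squares for males and circles for females, with the replicate number beside each point and the mean and SD at the side. Middle-aged female 2 stands highest for the members at 5.91, and the 2 young libraries numbered 1 are lowest over all genes at 3.28 and 3.45.

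Single libraries held the extremes of many members. Middle-aged female 2 was the highest library for 12 of 43 members (27.9%), against 12.2% of all tested genes. These 12 were Irf7, Oas1a, Oas3, Ifi44, Zbp1, Ifitm2, Ifitm3, Gbp2, Gbp4, Gbp6, Gbp7 and Trim30a. Middle-aged female 3 was the lowest for 11 (25.6%), against 9.26% of all genes, and these were Ifit1, Ifit3, Isg15, Isg20, Irf9, Bst2, Ifi27l2a, Ifi35, Rtp4, Xaf1 and Igtp. Young male 1 was the highest for 11 (25.6%, against 18.0% of all genes) and the lowest for 9 (20.9%, against 32.3%). The direction was the same within all 3 replicate numbers for 12 members that were higher in middle-aged cells (27.9%, against 19.7% of all genes) and 7 that were lower (16.3%, against 13.4%).

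More members passed the test by replicate number than by age, and so did more of all genes. Number 1 against numbers 2 and 3 was a term added to sex and age in edgeR, a contrast chosen with these results known. At an adjusted p under 0.05, 6 members (14.0%) were higher in number 1, beside 16.0% of all genes. Another 10 (23.3%) were lower, beside 17.7%. Over all genes 2099 were higher and 2324 lower in number 1, while 3 were called by age. Ifi35, Usp18, Rtp4, Bst2, Isg15 and Xaf1 were higher, by 1.10 (SE 0.20) for Ifi35 and 1.24 (SE 0.42) for Isg15 on the log2 scale. Ddx58, Parp9, Ifit2, Irf1, Oas3, Gbp2, Gbp5, Mx1, Stat2 and Gbp3 were lower, by -1.72 (SE 0.23) for Ddx58 and -2.47 (SE 0.55) for Oas3. The differences were then set by gene length. Of 6 members up to 1500 bp, the median difference was 0.68 (0.77 over 2143 tested genes of that length), of 10 members over 1500 and up to 3000 bp it was 0.49 (0.17 over 2884 genes), and of 27 members over 3000 bp it was -0.66 (-0.51 over 8102 genes). Why length and number go together was not tested. Isg15 and Rtp4 were not raised in every library numbered 1. Against numbers 2 and 3 of the same age, number 1 was higher by 2.18 in young and 0.04 in middle-aged libraries for Isg15, 1.56 and 0.26 for Rtp4, and 1.68 and -0.40 for Ifi27l2a. The same differences in young and middle-aged libraries were 1.18 and 0.28 for Bst2, 1.19 and 0.28 for Xaf1, and 1.48 and 0.69 for Ifi35. For Usp18 they were 1.36 and 0.90.

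**Figure D5:**
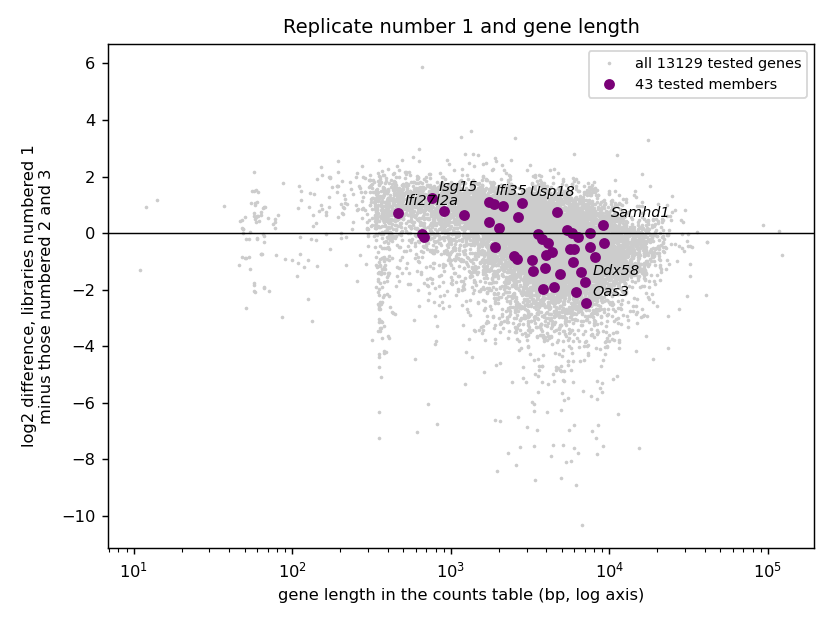
Difference in log2 level between the libraries numbered 1 and those numbered 2 and 3 (vertical axis) against gene length in bp on a log axis, for the 43 tested members (purple) and all 13129 tested genes (grey). Of the 6 members up to 1500 bp, 4 lie above 0, among them Isg15 at 1.24. Of the 27 over 3000 bp, 5 lie above 0, and Oas3 lies below at -2.47.

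Males and females were compared in the same model. No member passed an adjusted p under 0.05 for sex (0 of 43; 0.0381% of all genes) or an unadjusted one (0 of 43; 0.754% of all genes), and DESeq2 and limma voom called none. The smallest p values were those of Irf9, Ifi27l2a and Ifit1, with log2 differences (male over female) of -0.28 (SE 0.19), -0.89 (SE 0.61) and 0.67 (SE 0.47), each with an adjusted p of 1.00 in edgeR's test. The age difference was also compared between the sexes by an interaction term. No member had an unadjusted p under 0.05 (0 of 43; 1.20% of all genes). No gene of the 13129 had an adjusted one in edgeR. The nearest were Gbp4, Ly6a and Gbp7, whose age difference on the log2 scale was -1.44, 1.60 and -1.07 in males relative to females (adjusted p = 1.00 each).

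The rest of the pathway was read from lists of genes. Of 21 genes for interferon ligands, only Ifng had enough counts to be tested, and 18 had 0 counts in every library. Ifnz had 26 counts over all libraries and Ifnab had 2. Ifng was at 0 to 31.5 CPM in young and 1.09 to 28.4 CPM in middle-aged libraries, highest in young male 1 and middle-aged female 2 (log2 fold change 0.29, SE 1.18). Of the receptor chains 5 of 6 were tested and none passed an unadjusted p under 0.05, with log2 fold changes of -0.031 for Ifnar1, 0.0078 for Ifnar2, -0.18 for Ifngr1 and -0.55 for Ifngr2. Ifnar1 was at 67.3 to 158 CPM in young and 73.5 to 157 CPM in middle-aged libraries. Ifnar2 was at 107 to 143 CPM in young and 109 to 151 CPM in middle-aged libraries. Ifngr1 was at 629.9 to 1052 CPM in young and 482 to 936 CPM in middle-aged libraries. Ifngr2 was at 3.78 to 14.8 CPM in young and 2.86 to 15.4 CPM in middle-aged libraries. Of 61 further tested ISGs that are not members, 1 was higher and 0 were lower at an unadjusted p under 0.05, beside 2.00% and 0.990% of all genes, with a median log2 fold change of -0.037.

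Of 8 genes that act as brakes on the pathway, 2 were higher in middle-aged cells at an unadjusted p under 0.05 and 0 were lower, beside 2.00% and 0.990% of all genes. Socs3, a suppressor of cytokine signalling, was at 56.2 to 117 CPM in young and 107 to 225 CPM in middle-aged libraries, with a log2 fold change of 1.09 (SE 0.24, edgeR adjusted p = 0.321). The adjusted p of Socs3 was 0.00878 in DESeq2 and 0.00802 in limma voom. Socs1 was at 75.5 to 158 CPM in young and 93.5 to 269 CPM in middle-aged libraries, with 0.85 (SE 0.31, edgeR adjusted p = 1.00). The adjusted p of Socs1 was 0.604 in DESeq2 and 0.0433 in limma voom, and its log2 fold change was 1.44 in males alone and 0.36 in females alone. Socs1 is also the 1 further ISG counted above. Of 11 tested genes for sensing nucleic acid, 1 was higher, Tlr3, at 0 to 1.62 CPM in young and 0.477 to 5.55 CPM in middle-aged libraries, and 0 were lower, beside the same shares of all genes.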

How the data were processed

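Column-purified RNA of the sorted cells was made into libraries with a SMARTer kit and sequenced by a company. The authors deposited counts per Ensembl gene for 11 libraries, not normalized, at GRCm38 coordinates, with gene lengths. The submitters' processing notes name kallisto and mm10; the version, strandedness and the treatment of shared reads are not given in the sources used here. All values are whole numbers, and the coordinates of all 44 members matched GENCODE M21. Groups came from the sample labels.

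The counts were analysed in R 4.3.3 with edgeR 4.0.16: TMM factors, filterByExpr on age (minimum count 10, minimum total 15), robust glmQLFit, and glmQLFTest for age with sex as a second term, adjusted by Benjamini-Hochberg over 13129 genes. CPM values carry the TMM factors. A prior count of 2 went into log2 CPM. Exact permutation tests were 2-sided, over every split of 11 libraries into 6 and 5, on mean log2 CPM. Alternatives used DESeq2 1.42.0, limma 3.58.1 (voom), other scaling, filters and terms, each sex alone, and each library left out. The edgeR test for age was tried on simulated counts, which held no effect of replicate number. The other steps were not tried on simulated data. Limits of 3 counts cover counting error only, since there are no molecular identifiers.

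The members and lists were chosen with earlier results of these data known. Genes named with full values are, among tested members, the 6 with the smallest p in each direction by age, the 5 with the highest mean TPM, the 3 with the smallest p for sex and for the interaction, and members whose ages do not overlap; the values given for others were chosen after they were seen. Ages in months and the number of libraries in each group are those of the labels. A pathway gene that the rule names is not reported here.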

Additional observations from a re-analysis of the deposited data

Results flagged for a closer look

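Sex and age together leave at most 3 libraries a group, so each age was taken as a group, and the gap of the extreme library to its neighbour was set against the group's range by Dixon's criterion. Of 88 groups (43 tested members and their mean score, in 2 ages), 9 had a library standing apart. Chance gives about 1 in 20 for a single group of normal values. The groups share the same libraries and are not independent, so the count was not tested against that share. Values are log2 CPM. Young male 1 was the lowest young library by a wide gap for Oas3 (-1.08, next 3.89), Ifih1 (-1.78, next 2.99) and Dhx58 (-3.18, next 4.24), which rest on 2, 1 and 0 counts. Young female 1 was the lowest for Gbp3 (2.19, next 4.44), Gbp6 (2.19, next 3.59) and Gbp7 (4.90, next 6.83). Gbp6 was highest among middle-aged libraries in female 2 (4.09, next 3.23). Samhd1 was highest in young male 1 (8.84, next 8.13) and, among middle-aged libraries, in female 1 (8.63, next 8.26). Ifitm1, which was under the filter on low counts and in no test, was at 10.3 CPM in middle-aged female 2, above all 6 young libraries and all other middle-aged ones, which were at 0.295 CPM or less.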

How the results depend on the processing

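The count of all genes at an adjusted p under 0.05 by age was 3. It was 112 with DESeq2, 138 with limma voom, 17 with at least 1 count in any library, 5 with at least 10 counts in every library, 5 without a sex term, 6 in the libraries over 10000000 counts, 0 in males alone and 0 in females alone. With 1 library left out it ranged from 1 to 4. With the replicate block shared by both sexes it was 19. The correlation of deviations between young and middle-aged libraries of 1 number was 0.323, 0.176, 0.428, 0.0287 and 0.392 for male 1, male 2 and females 1 to 3. Between males and females of 1 number it was 0.415, 0.147 and 0.558 for young 1 to 3 and 0.470 and 0.196 for middle-aged 1 and 2. Since female 2 was not over 0.1, the numbers were not taken to pair the libraries, although the other 9 correlations were over it. With the replicate block the score difference was 0.20. Members called by age numbered 2 with DESeq2, 1 with limma voom and 0 otherwise. At an unadjusted p under 0.05 the members higher in middle-aged cells numbered 1 to 8 over the alternatives and those lower 0 to 6. With the shared replicate block there were 7 and 6, beside 5.69% and 3.18% of all genes, and without middle-aged female 2 there were 2 and 4, beside 1.61% and 1.11%. The direction turned in at least 1 alternative for 28 of the 43 members, among them Isg20 (-0.50, and 0.37 in numbers 2 and 3), Rsad2 (-0.35, and 0.71 there), Oas2 (0.52, and -0.83 in males alone), Oasl1 (-0.48, and 0.18 in females alone) and Gbp7 (0.37, and -0.24 in males alone). Sp100 was 0.15 in females alone and -0.17 to 0.0079 with 1 library left out (the highest without middle-aged male 1). Bst2 was 0.25 with limma voom, 0.25 in males alone, 0.27 over 10000000 counts, 0.17 in numbers 2 and 3 (added after seeing the data) and -0.39 to 0.11 with 1 library left out (the highest without young female 1). Ifi35 was 0.096 with limma voom and 0.29 over 10000000 counts, where Irf1 was -0.0032. The causes were not tested. Other scaling left the members at 20 above and 23 below 0, or 19 and 24 with library size alone, and moved the median of all genes by under 0.1. The adjusted p over the alternatives ranged from 0.00731 to 1.00 for Oas1a, 0.0270 to 1.00 for Ly6a, 0.0966 to 1.00 for Ifitm2 and 0.107 to 1.00 for Ifi27l2a. The range of Ifi27l2a leaves out DESeq2, which gave it none. The score difference ranged from 0.045 to 0.33. Genes at a few counts, such as Oas2, Ifi44 and Ifitm2, are limited by depth in both shallow young libraries. Ifitm2 was at 4 to 11 counts in the deeper young libraries too.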

Other observations

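Markers of other spleen cells were read in the same libraries. The sum of 8 B cell markers ranged from 136 to 629 CPM and that of 5 plasma cell markers from 88.1 to 367 CPM, both highest in middle-aged female 2. Taken singly, 3 of the 8 B cell markers and 4 of the 5 plasma cell markers were highest there. The sum of 6 plasmacytoid dendritic cell markers, which include the member Bst2, ranged from 167 to 353 CPM, again highest in middle-aged female 2. Only 3 of these 6 markers were highest there, and Bst2, Ccr9 and Spib were highest in other libraries. The sum of 7 NK cell markers ranged from 2521 to 9269 CPM, and most of it was Nkg7, which cytotoxic T cells also express. Nkg7 was at 6259 to 8730 CPM in the 4 libraries numbered 1 and at 1768 to 3444 CPM in the others. In each group by age and sex the library numbered 1 was the lowest for Ncr1, Eomes and Gzma. These libraries were at 1.81 to 44.9 CPM for Ncr1, 72.7 to 179 CPM for Eomes and 23.5 to 269.7 CPM for Gzma. The same did not hold for Klrb1c, Klri2 and Kit. Klrb1c was at 33.6 CPM in middle-aged male 1 and 30.2 CPM in male 2. It was also highest among middle-aged females in female 1, at 95.1 CPM. Klri2 was higher in middle-aged male 1 than in male 2. Kit was highest among young males in male 1, at 5.43 CPM. The sum of 5 CD4 T cell markers ranged from 1.39 to 33.8 CPM, and that of 6 erythroid and platelet markers from 0.761 to 133 CPM. The sum of 6 conventional dendritic cell markers ranged from 4.88 to 50.7 CPM, highest in young female 3, where Itgax was at 43.3 CPM. Taken singly, 5 of these 6 markers were highest in middle-aged female 2. What these cells contribute to the members was not tested.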
